A study of Mus musculus with 4 samples.

Results

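The transporters that carry neurotransmitters and amino acids across the plasma membrane or into vesicles were examined in the mouse dentate gyrus after electroconvulsive stimulation (ECS), an electrical stimulus that induces a seizure. Members were the genes whose symbol in the deposited probeset map belongs to the families Slc1, Slc6, Slc17, Slc18 or Slc32 and that have at least 1 probeset. This gave 38 genes of 18010 measured in all: 7 of Slc1, 19 of Slc6, 9 of Slc17, 2 of Slc18 and 1 of Slc32. A further symbol, Slc18a3, which encodes the vesicular acetylcholine transporter, has no probeset in the map and is listed at 0, so it was not analysed here. The ECS group consisted of 2 exon arrays from mice killed 4 h after ECS (pulses of 0.3 ms and 18 mA at 100 Hz for 1.0 s). The sham group consisted of 2 exon arrays from mice taken 4 h after sham treatment, by the sample titles. Both groups were 8-week-old wild-type male C57/Black6 mice, and the dentate gyrus was microdissected from whole hippocampus. Replicates are biological per the labels, which do not give the number of animals behind each array. The p-values thus rest on the spread between arrays, with the spread of each gene drawn towards that of all genes.

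Plasma membrane transporters of Slc1 and Slc6 use the sodium gradient to clear transmitter from the extracellular space. Transporters of Slc18, Slc32 and part of Slc17 fill vesicles or move solutes in and out of other organelles. In the hippocampus glutamate is cleared mostly by astrocytes, GABA is taken up by neurons and astrocytes, and the granule cells of the dentate gyrus are glutamatergic neurons. Other Slc6 members carry creatine, taurine, proline or neutral amino acids, and several of these are at work in brain barriers or kidney as well as in neurons.

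All readings below are log2 array values per transcript, the mean over a transcript's probesets. They compare arrays for 1 gene and are not compared between genes, because probes differ in brightness. The 4 arrays had medians of 7.26 and 7.20 after ECS and of 7.25 and 7.35 after sham over all genes, and the median difference over all genes was -0.036. Across genes, which are no independent replicates, Pearson's r was 0.993 within either group and 0.987 to 0.990 between an ECS and a sham array. The granule cell gene Prox1 read 9.60 and 9.53 on the ECS arrays, against 9.29 and 9.40 on the sham arrays. Of 10 measured granule cell markers, 2 fell after ECS (Tdo2 and Dsp), and the summed level of all 10 was 12.38 and 12.46 on the ECS arrays, against 12.68 and 12.77 on the sham arrays. Markers of blood, oligodendrocytes and choroid plexus also varied between arrays and are given beside the genes they varied with. In whole tissue fewer cells of a type and less RNA per cell cannot be told apart.

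None of the 38 transporter genes passed the threshold after ECS, a Benjamini-Hochberg adjusted p under 0.05 in limma over all genes. Over all genes 0.694% passed, 0.500% as higher and 0.194% as lower. At an unadjusted p under 0.05, 2 members were higher (Slc6a8 and Slc6a17) and 2 lower (Slc6a15 and Slc17a5), against 6.39% and 10.5% of all genes (16.9% together). Only Slc6a8 was at least 1.5-fold apart, against 3.01% of all genes. Both ECS arrays lay above both sham arrays for 5 members and below them for 9 (36.8% together), against 18.7% and 30.7% of all genes (49.5% together). The median difference of the 38 members was -0.030, close to that of all genes. The differences lay between the -0.56 of Slc6a15 and the 0.80 of Slc6a8.

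**Figure D1:**
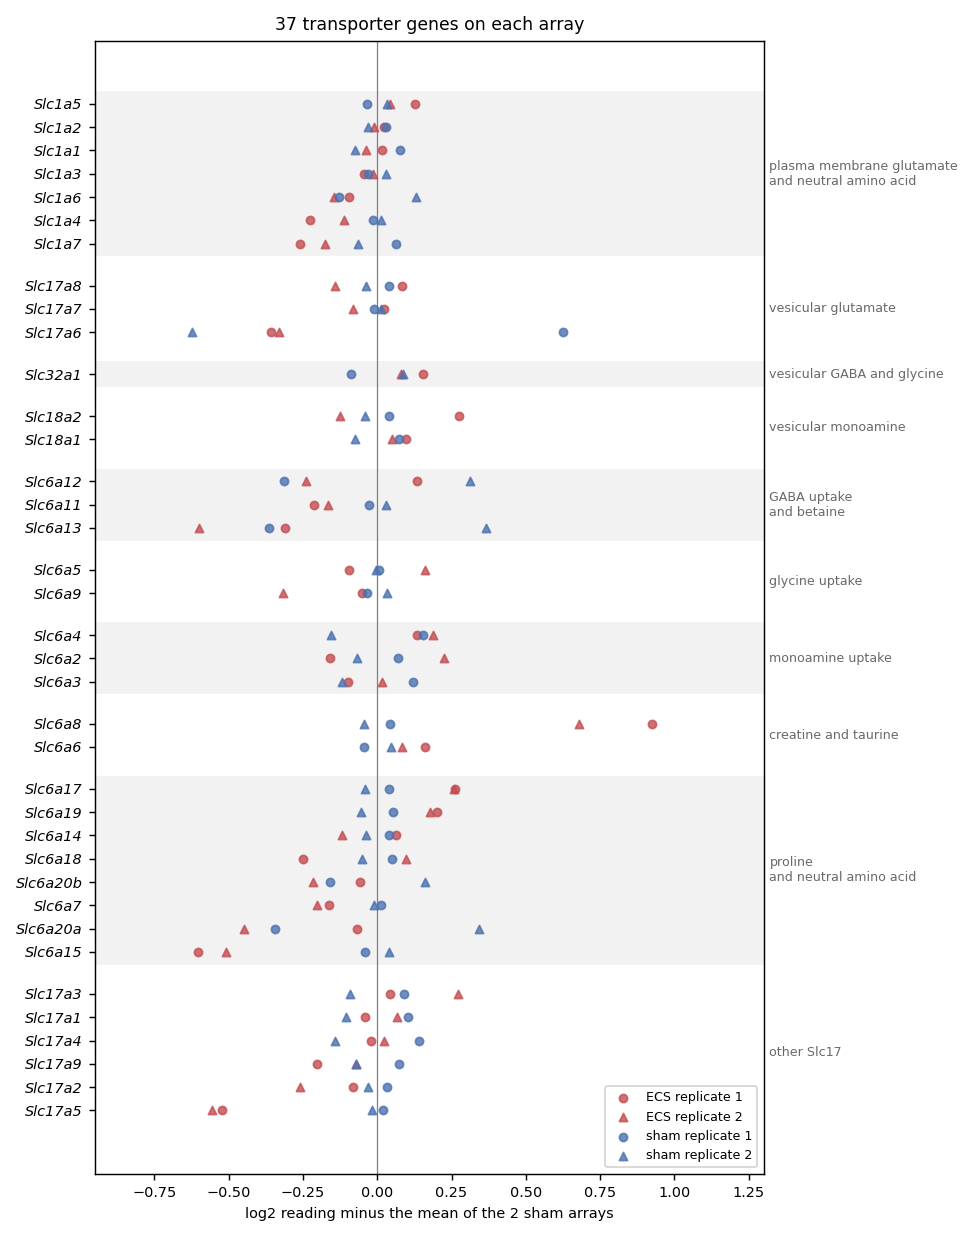
Log2 reading of 37 transporter genes on each array, less the mean of the 2 sham arrays, by role (red, ECS; blue, sham; circles, replicate 1; triangles, replicate 2). Slc6a8 lies to the right and Slc17a5 and Slc6a15 to the left on both ECS arrays, while Slc17a6, Slc6a12, Slc6a13 and Slc6a20a spread widely between the sham arrays.

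Creatine and taurine carriers held the member with the highest difference. Slc6a8, the plasma membrane creatine transporter, which supplies cells with the substrate of the creatine kinase energy buffer, read 8.91 and 8.67 on the ECS arrays, against 8.03 and 7.95 on the sham arrays. Both ECS arrays were above both sham arrays, and the gap between the groups was wider than the spread within either. The means were 8.79 ± 0.17 after ECS and 7.99 ± 0.06 after sham (SD, n = 2 each), a difference of 0.80 ± 0.12 (SE; 1.74-fold; limma adjusted p = 0.0723). The 95% interval of this difference was 0.50 to 1.10, and by unadjusted p the gene stood at place 214 of 18010. The difference missed the threshold in the planned fit and passed it in 2 alternative fits, with a limma adjusted p of 0.0287 once the dimmest 25% of genes were left out and 0.0104 under eBayes with trend and robust options. Of its 23 probesets, 21 had both ECS arrays above both sham arrays, and all 23 had a higher ECS mean, with differences from 0.23 to 1.36. Over all 229712 probesets, 17.6% lay above in this way and 25.6% below. Probesets of 1 gene share the RNA and the array and are no replicates. The 3 listed transcripts of Slc6a8 have the same probesets, so transcript forms cannot be told apart. Both ECS arrays lay above both sham arrays for the blood markers too, none of which passed the test. At an unadjusted p under 0.05 all 5 measured genes were higher, against 6.39% of all genes, with a median difference of 0.79. The 5 measured genes are 3 distinct measurements, because Hba-a1 and Hba-a2 share all their probesets, as do Hbb-b2 and Hbb-bt; all 3 lay above, against 18.7% of all genes. With shared probesets counted once, their summed level was 12.77 and 12.50 on the ECS arrays, against 11.52 and 12.15 on the sham arrays. Alas2, the erythroid haem synthesis gene, read 6.45 and 6.01 after ECS, against 5.43 and 5.84 after sham. The part of blood in the result was not tested. Of 10 measured oligodendrocyte markers 8 were highest on ECS replicate 1, where Slc6a8 was highest too. Their summed level was 13.47 and 12.97 on the ECS arrays, against 13.13 and 13.01 on the sham arrays, and their part was not tested either. Slc6a6, the taurine transporter, read 9.20 and 9.12 on the ECS arrays, against 8.99 and 9.08 on the sham arrays, a difference of 0.12 (95% interval -0.11 to 0.36, limma adjusted p = 0.559).

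Of 8 measured genes of creatine and taurine metabolism, none passed the threshold in either direction, and their median difference was -0.062. Gatm, which makes the creatine precursor guanidinoacetate, had the highest difference (0.19) and Gamt, which methylates it to creatine, the lowest (-0.17). For both genes the arrays of the groups overlapped. Ckb, the brain creatine kinase gene, had -0.03.

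**Figure D2:**
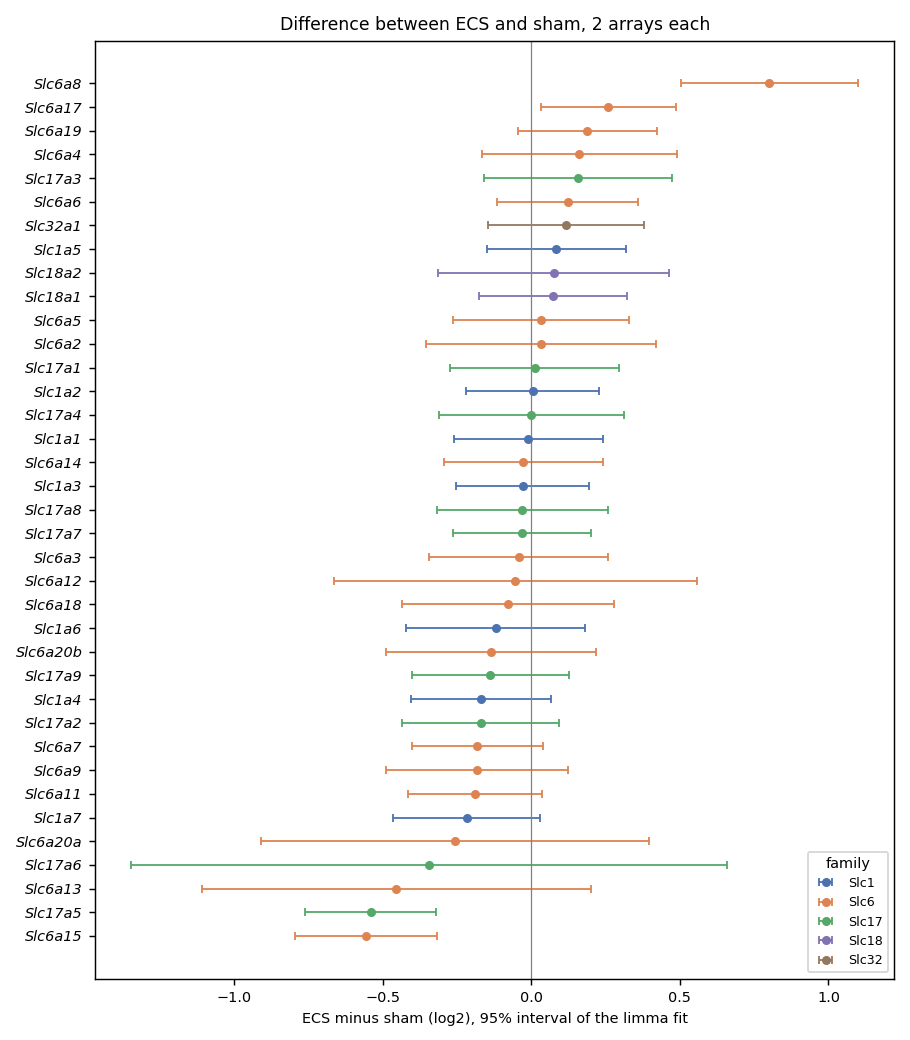
Difference between ECS and sham for 37 transporter genes on the log2 scale, ordered by size, with the 95% interval of the limma fit (2 arrays a group). The intervals of Slc6a8, Slc6a17, Slc17a5 and Slc6a15 leave out 0, and that of Slc17a6 is the widest.

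None of the 8 proline and neutral amino acid carriers passed, and at an unadjusted p under 0.05 Slc6a17 was higher and Slc6a15 lower. Slc6a15, which encodes a neuronal carrier of branched-chain amino acids and proline, read 9.44 and 9.53 on the ECS arrays, against 10.00 and 10.08 on the sham arrays. Both ECS arrays lay below both sham arrays. The means were 9.48 ± 0.07 after ECS and 10.04 ± 0.06 after sham (SD, n = 2 each), a difference of -0.56 ± 0.09 (SE; limma adjusted p = 0.0933; 95% interval -0.79 to -0.32). All 18 probesets of Slc6a15 had both ECS arrays below both sham arrays, with differences from -0.81 to -0.36. It passed the threshold in the same alternative fits (limma adjusted p = 0.0394 and 0.0102). Slc6a17, its close relative, a carrier of neutral amino acids on synaptic vesicles, had a difference of the opposite sign. It read 10.86 on both ECS arrays, against 10.64 and 10.56 on the sham arrays. The difference was 0.26 ± 0.09 (SE; limma adjusted p = 0.249; 95% interval 0.03 to 0.49), and 12 of its 13 probesets had both ECS arrays above both sham arrays. Neither gene passed the threshold, and the difference between them was not tested.

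Slc6a7, the brain proline transporter, had readings of 9.06 and 9.02 on the ECS arrays, against 9.23 and 9.21 on the sham arrays. This is a small difference of -0.18 (95% interval -0.40 to 0.04, limma adjusted p = 0.360) with 13 of 13 probesets lower on average. Slc6a19, known as the neutral amino acid carrier of kidney and gut, had 0.19 (limma adjusted p = 0.371), and Slc6a14, Slc6a18 and Slc6a20b had -0.03, -0.08 and -0.14. Slc6a14, Slc6a18 and Slc6a19 were among the 12 members in the dimmest 25% of all genes, where a difference is least certain. Slc6a20a and Slc6a20b are closely related copies; no probeset is listed for both.

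Amino acid carriers of other Slc families gave no call either: of 28 measured, none passed in either direction, and the median difference was -0.061. At an unadjusted p under 0.05, 0 of them were higher and 5 lower, against 6.39% and 10.5% of all genes. Slc38a11, a little studied relative of the glutamine transporters, had the lowest difference (-0.73, limma adjusted p = 0.0716), with readings of 5.31 and 5.11 on the ECS arrays, against 5.95 and 5.93 on the sham arrays. This gene was in the dimmest 25% of all genes, where a difference is least certain. Slc7a14, a lysosomal cationic amino acid carrier, had the highest (0.22, limma adjusted p = 0.329).

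In Slc17, the largest difference was that of Slc17a5, which encodes sialin, the lysosomal exporter of sialic acid. Slc17a5 read 8.45 and 8.42 on the ECS arrays, against 8.99 and 8.96 on the sham arrays. The arrays of each group lay within 0.04 of each other and both ECS arrays were below both sham arrays. The means were 8.43 ± 0.02 after ECS and 8.97 ± 0.03 after sham (SD, n = 2 each), a difference of -0.54 ± 0.09 (SE; limma adjusted p = 0.0869; 95% interval -0.76 to -0.32). Of its 14 probesets 13 had both ECS arrays below both sham arrays, and all 14 had a lower ECS mean, from -1.01 to -0.10. In the alternative fits that called Slc6a8 and Slc6a15 it passed as well (limma adjusted p = 0.0356 and 0.0142). Of the 10 granule cell markers, 2 fell as given above, and 6 were lower at an unadjusted p under 0.05, against 10.5% of all genes; their median difference was -0.57. Prox1 and Npnt had both ECS arrays above both sham arrays (differences 0.22 and 0.06), and Dock10 had 0.00. The part of granule cell RNA in the values of Slc6a15 and Slc17a5 was not tested. Slc17a9, the vesicular nucleotide carrier that loads ATP, had a difference of -0.14 (limma adjusted p = 0.557). The phosphate and urate carriers of kidney and liver, Slc17a1 to Slc17a4, lay between the -0.17 of Slc17a2 and the 0.16 of Slc17a3, and all 4 were in the dimmest 25% of genes, as was Slc17a9. Slc17a3, the highest of the family, read 4.61 and 4.84 on the ECS arrays, against 4.66 and 4.48 on the sham arrays, and its difference was 0.04 without ECS replicate 2 and 0.27 without ECS replicate 1.

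The carriers that fill synaptic vesicles with fast transmitters had differences within the spread of the arrays. Slc17a7, which encodes the vesicular glutamate transporter of granule cells and other cortical excitatory neurons (VGLUT1), read 11.71 and 11.60 on the ECS arrays, against 11.67 and 11.70 on the sham arrays. The groups overlapped, and the difference of -0.03 had a 95% interval of -0.26 to 0.20 (limma adjusted p = 0.901), so a change of 1.5-fold in either direction lies outside it. Its 14 probesets had differences from -0.14 to 0.06. Slc17a8, which encodes VGLUT3, the form of some interneurons and of serotonergic fibres, read 6.80 and 6.57 after ECS, against 6.75 and 6.67 after sham, a difference of -0.03 (95% interval -0.32 to 0.26). Slc32a1, the vesicular carrier of GABA and glycine, read 8.76 and 8.69 on the ECS arrays, against 8.52 and 8.69 on the sham arrays, a difference of 0.12 (95% interval -0.15 to 0.38, limma adjusted p = 0.619) that was 0.03 without sham replicate 1 and 0.20 without sham replicate 2.

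Slc17a6, which encodes VGLUT2, the vesicular glutamate transporter found mostly in subcortical neurons, was set apart by 1 array. It read 5.78 and 5.81 on the ECS arrays, against 6.76 and 5.51 on the sham arrays. The ECS arrays lay between the sham arrays. The difference of -0.34 had the widest interval of the members (-1.35 to 0.66, limma adjusted p = 0.706), and it was 0.28 without sham replicate 1 and -0.97 without sham replicate 2, so no direction can be given.

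The groups overlapped for both vesicular monoamine carriers. Slc18a2 (VMAT2), which loads monoamines in neurons, read 6.66 and 6.26 on the ECS arrays, against 6.43 and 6.35 on the sham arrays (difference 0.07, limma adjusted p = 0.846). Slc18a1 (VMAT1), known from endocrine cells, had 5.14 and 5.10 after ECS, against 5.12 and 4.97 after sham (difference 0.07, limma adjusted p = 0.753); 2 of its 23 probesets are also listed for another gene.

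The 3 main glutamate carriers of the plasma membrane had differences within 0.03 of 0. Slc1a2 (GLT-1), the main astrocytic glutamate transporter, read 11.80 and 11.77 on the ECS arrays, against 11.81 and 11.75 on the sham arrays. The difference of 0.00 had a 95% interval of -0.22 to 0.23 (limma adjusted p = 0.986), and its 11 probesets lay between -0.05 and 0.10. These 11 probesets belong to a shorter listed transcript. A pair of longer transcripts has 29 probesets, with a difference of 0.07, and the 18 probesets outside the shorter one averaged 0.11. Slc1a3 (GLAST), the other astrocytic form, read 10.43 and 10.46 on the ECS arrays, against 10.44 and 10.50 on the sham arrays, a difference of -0.03 (95% interval -0.25 to 0.20, limma adjusted p = 0.905). Slc1a1 (EAAC1), the neuronal form, read 10.01 and 9.96 after ECS, against 10.07 and 9.92 after sham, a difference of -0.01 (95% interval -0.26 to 0.24, limma adjusted p = 0.970). For these 3 genes the intervals leave out a change of 1.5-fold (0.585 on the log2 scale). None of 8 astrocyte markers passed, their median difference was 0.01, and their summed level was 13.21 and 13.28 on the ECS arrays, against 13.22 and 13.28 on the sham arrays.

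Among the other Slc1 genes, Slc1a4 (ASCT1), an exchanger of serine and other small neutral amino acids, had 8.48 and 8.60 on the ECS arrays, against 8.70 and 8.72 on the sham arrays (difference -0.17, limma adjusted p = 0.417). Slc1a5 (ASCT2), a glutamine exchanger, had the highest difference of the family, with 6.20 and 6.11 on the ECS arrays, against 6.04 and 6.11 on the sham arrays (difference 0.08, limma adjusted p = 0.689). Slc1a7 (EAAT5), the retinal form, had the lowest, with 5.62 and 5.71 after ECS, against 5.95 and 5.82 after sham (difference -0.22, limma adjusted p = 0.339). Slc1a6 (EAAT4), known from Purkinje cells, had -0.12.

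Slc6a11 (GAT-3), the astrocytic GABA transporter, read 9.78 and 9.83 on the ECS arrays, against 9.97 and 10.03 on the sham arrays. Both ECS arrays lay below both sham arrays. The difference was -0.19 ± 0.09 (SE; limma adjusted p = 0.352; 95% interval -0.42 to 0.03), with 10 of 15 probesets below, and the interval leaves out a 1.5-fold fall.

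The glycine transporters did not pass either. Slc6a9 (GlyT1), the astrocytic and glutamatergic form that sets glycine near NMDA receptors, read 8.34 and 8.08 on the ECS arrays, against 8.36 and 8.43 on the sham arrays (difference -0.18, limma adjusted p = 0.493), and 8 of 23 probesets lay below. Its difference rested on ECS replicate 2: it was -0.05 without that array and -0.32 without ECS replicate 1. Slc6a5 (GlyT2), the form of glycinergic neurons of the hindbrain and spinal cord, had 4.78 and 5.03 after ECS, against 4.88 and 4.87 after sham (difference 0.03, limma adjusted p = 0.917).

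The enzymes around these transmitters gave no call. Of 16 genes of glutamate and GABA metabolism none passed, with a median difference of -0.071. At an unadjusted p under 0.05, 0 were higher and 2 lower, against 6.39% and 10.5% of all genes. Gls2, a glutaminase gene, had the highest difference (0.20) and Aldh4a1, of proline breakdown, the lowest (-0.34, limma adjusted p = 0.200). Glul, the astrocytic glutamine synthetase gene, had 0.01, and the GABA synthesis genes Gad1 and Gad2, which also served as interneuron markers, 0.14 and 0.07. None of all 10 interneuron markers passed, and their median difference was 0.01. Of 11 genes of glycine and serine metabolism none passed, with a median of -0.156, the highest in Dld (0.12) and the lowest in Shmt1 (-0.37). By the unadjusted p, 0 of these were higher and 2 lower, against the same shares of all genes. Among 15 partners and regulators of transporters none passed, with a median of 0.043. By the unadjusted p 1 was higher and 2 lower, against 6.39% and 10.5% of all genes. Sgk1, a kinase that raises transporters at the membrane, had 0.36 (limma adjusted p = 0.181), and Nedd4l, a ubiquitin ligase of membrane transporters, -0.31 (limma adjusted p = 0.199).

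**Figure D3:**
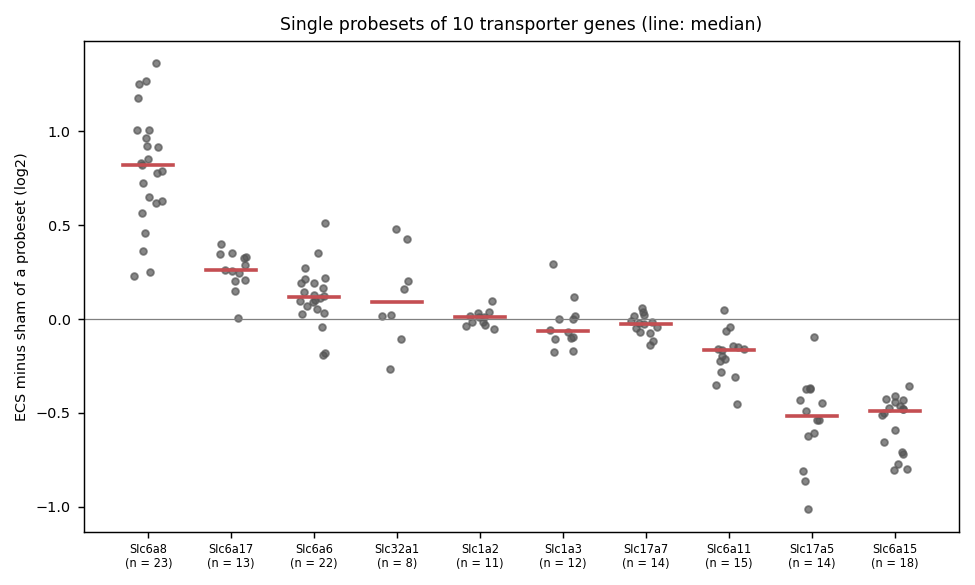
Difference between ECS and sham on the log2 scale for each probeset of 10 transporter genes (points; the line is the median, n the number of probesets). All probesets of Slc6a8 and Slc6a17 lie above 0 and all of Slc17a5 and Slc6a15 below it, while those of Slc1a2 and Slc17a7 stay within 0.14 of 0.

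The monoamine transporters of the plasma membrane, which clear monoamines at the terminals of fibres whose cell bodies lie outside the dentate gyrus, had overlapping groups, and Slc6a2 and Slc6a4 were among the dimmest 25% of genes. Slc6a4, the serotonin transporter, read 5.27 and 5.33 on the ECS arrays, against 5.29 and 4.98 on the sham arrays (difference 0.16, limma adjusted p = 0.578). Without sham replicate 2 the difference was 0.01, and without sham replicate 1 it was 0.32. Slc6a2, the noradrenaline transporter, read 4.74 and 5.12 after ECS, against 4.97 and 4.83 after sham (difference 0.03, limma adjusted p = 0.938). Slc6a3, the dopamine transporter, read 5.89 and 6.01 after ECS, against 6.11 and 5.87 after sham (difference -0.04, limma adjusted p = 0.894). Of 20 genes of monoamine and acetylcholine synthesis, breakdown and other transport none passed, with a median of -0.094. At an unadjusted p under 0.05, 1 was higher and 3 lower, against 6.39% and 10.5% of all genes. Slc18b1, a vesicular polyamine carrier of the Slc18 family that the symbol rule leaves out, had the lowest difference (-0.64, limma adjusted p = 0.0689), with 8.33 and 8.23 on the ECS arrays, against 8.92 and 8.93 on the sham arrays. Gch1, of tetrahydrobiopterin synthesis, had the highest (0.42, limma adjusted p = 0.149) and was in the dimmest 25% of all genes.

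The remaining genes with a wide gap between the sham arrays are described together because of that gap, seen in these values, and are no list of their own. Slc6a13 (GAT-2), a GABA and taurine carrier of meninges and liver, read 7.96 and 7.67 on the ECS arrays, against 7.90 and 8.64 on the sham arrays. Slc6a20a, a proline carrier of kidney and meninges, read 8.91 and 8.53 on the ECS arrays, against 8.64 and 9.32 on the sham arrays. Slc6a12 (BGT1), the betaine and GABA carrier, read 7.01 and 6.63 after ECS, against 6.56 and 7.19 after sham. Each was highest on sham replicate 2, as was Slc6a20b, and the groups overlapped for all 4. Of all 38 members 11 were highest on that array, 11 on sham replicate 1, 11 on ECS replicate 1 and 5 on ECS replicate 2. Their differences were -0.45, -0.26, -0.05 and, for Slc6a20b, -0.14, with limma adjusted p-values of 0.431, 0.659, 0.934 and 0.667. Without sham replicate 2 they were -0.09, 0.09, 0.26 and 0.02. Of the 8 choroid plexus markers all were highest on that array: their summed level was 9.26 and 8.96 on the ECS arrays, against 9.28 and 11.08 on the sham arrays, led by Ttr with 6.55 and 5.90 after ECS, against 6.12 and 10.16 after sham. Of 7 measured meningeal markers 6 were highest on sham replicate 2, with summed levels of 11.56 and 11.92 on the ECS arrays, against 11.36 and 11.96 on the sham arrays. The part of these tissues in the transporter readings was not tested.

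**Figure D4:**
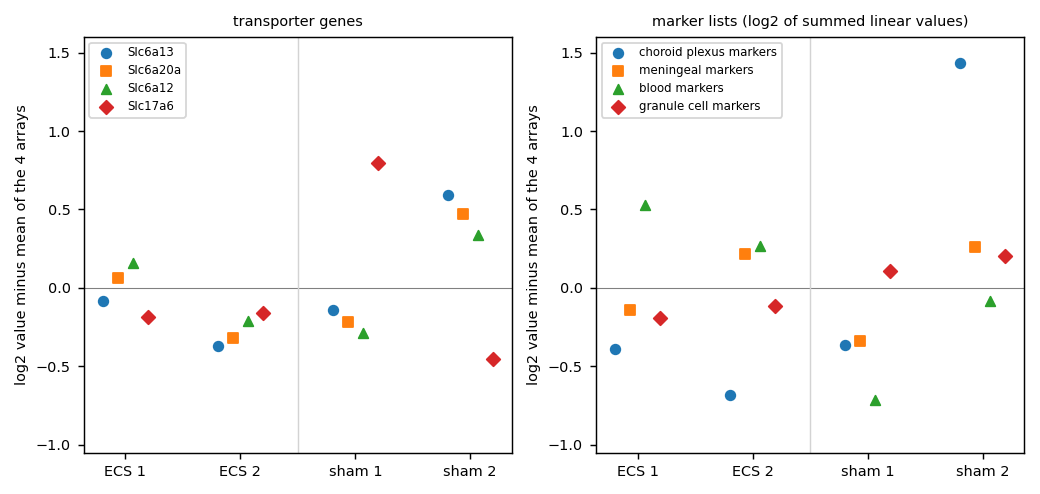
Log2 value on each array less the mean of the 4 arrays, for 4 transporter genes (left) and for the summed linear values of 4 marker lists (right; shared probesets counted once); ECS arrays stand left of sham arrays. Slc6a13, Slc6a20a, Slc6a12 and the choroid plexus markers are highest on sham replicate 2, and Slc17a6 is highest on sham replicate 1.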

How the data were processed

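The authors deposited log2 values per RefSeq transcript, log2 values per probeset and a map of probesets to transcripts. RMA and the oligo package are named in the submitters' processing notes; versions and the genome build are not given in the sources used here. Each of the 22485 deposited log2 rows with a probeset equalled the mean of its probesets on 1 labelled array within 1e-06. This tied the letters in the column names to the replicates. The column names give 0 h for the sham arrays, whereas the sample titles give 4 h after sham. The 3621 rows without a probeset are listed at 0 and were left out. Current symbols came from a RefSeq table of GRCm38.p6, which held 24932 of 25635 identifiers; members kept the symbol rule on the file's names. The row with the highest mean stood for a gene. ECS was compared with sham over 18010 genes with limma 3.58.1 in R 4.3.3 (lmFit, eBayes, two-sided, no block, no filter, 2 residual and 3.23 prior degrees of freedom), with Benjamini-Hochberg adjustment over all genes. The fit was tested on simulated data. The number of arrays limits the precision.

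Values on each array are given for members past the threshold, at least 1.5-fold apart, with the highest or lowest difference in their family, or in a panel of the main transmitter carriers, except 1; the highest and lowest gene of each list are given by their difference. Other values on single arrays (Slc6a6, Slc6a7, Slc6a12, Slc6a13, Slc6a17, Slc6a20a, Slc1a4, Slc38a11, Slc18b1 and markers) and the probeset counts were chosen after they were seen. Members, roles and lists were chosen with earlier results of these data known. Marker sums count genes with the same probesets once, as decided after seeing the data. Lists are described by counts and medians, with no set test. Alternatives were each array left out, other scalings, filters, rows per gene, fits, thresholds and blocks; cyclic loess and crossed pairing were added after seeing the data. Probeset positions were not analysed here. The values of that 1 member are not reported here; it stays in the counts and in the fit.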

Additional observations from a re-analysis of the deposited data

How the results depend on the processing

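No member passed in the planned fit, and Slc6a8 (higher), Slc6a15 and Slc17a5 (both lower) passed in others: 1 higher and 2 lower members were called without the dimmest 25% of genes (12 of the 38 members left out; 242 higher and 216 lower of all genes), with trend and robust eBayes (365 and 352) and at an adjusted p under 0.10 (219 and 180). By the 1.5-fold rule with no test 1 member was higher and 0 lower. Over all genes 90 were higher and 35 lower, against 80 and 18 after median centring. At an unadjusted p under 0.05, 1150 were higher and 1888 lower, against 1921 and 1117 after median centring. The lean of all genes to lower values thus depends on the scaling, while the members stayed at 2 higher and 2 lower in both fits. With 1 array left out, the calls numbered 0 to 5 higher and 0 to 2 lower genes, and 0 members. All of these calls came without sham replicate 1. The spread of the remaining pair then stood for both groups, so these counts cannot be weighed against those of the planned fit. With the replicate number as a block 26 genes were higher and 6 lower, and 0 members passed. The column letter as a block is the same fit, because the letters stand for the replicate numbers. At an unadjusted p under 0.05 it had 1 higher and 2 lower members, against 874 higher and 1312 lower of all 18010 genes. Deviations of same-numbered arrays correlated at -0.203, and the crossed pairing gave 106 higher, 48 lower and 0 members. At an unadjusted p under 0.05 the crossed pairing had 2 higher and 3 lower members, against 1479 higher and 2406 lower of all 18010 genes. Slc6a8 lay between 0.68 and 0.92 in all alternatives, Slc17a5 between -0.56 and -0.47 and Slc6a15 between -0.60 and -0.48, with adjusted p up to 0.222, 0.288 and 0.263. Differences that passed nowhere changed sign in 44 cases of 19 genes, 28 with an array left out and 16 under quantile normalization, median centring or cyclic loess (Slc1a1, Slc1a2, Slc1a3, Slc17a7, Slc17a8, Slc6a3, Slc6a12 and Slc6a14, with values from -0.01 to 0.06). Beyond fewer arrays or genes, the cause was not tested. Signal over background was not measured, and dim genes are least certain.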
